A study of Homo sapiens with 8 samples.

Results

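The experiment asked what an ISL1 vector changes in islet-like cells that carry a knockout (KO) of ISL1, and it covers 6 of the 21 RNA libraries of the series. The parental line was H1, an established line of human embryonic stem cells, and the cells were differentiated in culture towards pancreatic islets, so every group shares this origin and protocol. On day 11 the ISL1 KO cells were transduced either with a vector carrying ISL1, an IRES2 element and blue fluorescent protein (ISL1 OE, 3 libraries) or with the fluorescent protein alone (BFP, 3 libraries), and all were harvested on day 18. The members were chosen by their labels alone: the 3 libraries of each group, with same-numbered replicates taken as pairs. Cells of other genotypes that received the same vectors on the same days serve for comparison: 6 libraries of PAX6 KO cells (3 ISL1 OE, 3 BFP), and 4 libraries of wild-type (WT) cells (2 ISL1 OE, 2 BFP). The remaining 5 libraries are of PDX1 KO cells (2 ISL1 OE, 3 BFP), which enter only the fits of all 21 libraries. The labels give neither the edit, nor how many clones each KO line stands for, nor the share of cells that took up a vector. In what follows, ISL1 OE and BFP mean libraries of ISL1 KO cells unless another genotype is named.

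ISL1 is a LIM homeodomain transcription factor of postmitotic islet endocrine cells, first isolated as a protein that binds the insulin gene enhancer. In mice its loss blocks the maturation of alpha, beta, delta and gamma cells. The LIM domains bind LDB1, which joins transcription factors to one another, and the homeodomain recognises DNA sites built around TAAT. In cultures grown from human stem cells, some endocrine cells instead resemble serotonin-making enterochromaffin cells of the gut, marked by TPH1, FEV and LMX1A.

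The promoters of the genes for glucagon (GCG), somatostatin (SST) and the serotonin-making enzyme tryptophan hydroxylase 1 (TPH1) are shown because the results turn on these products of alpha, delta and enterochromaffin-like cells. Each is the 300-base RefSeq window (GRCh38.p14) from 250 bases before to 50 bases after the gene's start, read 5′ to 3′ on the minus strand, and capitals mark TAAT on either strand. They lie at chr2:162152198-162152497 for GCG, chr3:187670345-187670644 for SST and chr11:18046220-18046519 for TPH1. The start in the RefSeq table need not be that of GENCODE, whose coordinates are given with the results: for TPH1 the RefSeq window lies upstream of the whole GENCODE gene.
GCG: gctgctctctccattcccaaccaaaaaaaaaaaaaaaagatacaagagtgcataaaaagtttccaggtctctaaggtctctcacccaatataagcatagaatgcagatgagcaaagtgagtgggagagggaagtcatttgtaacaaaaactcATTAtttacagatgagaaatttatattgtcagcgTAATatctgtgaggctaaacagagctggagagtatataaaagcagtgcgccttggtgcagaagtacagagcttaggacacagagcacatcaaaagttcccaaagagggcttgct
SST: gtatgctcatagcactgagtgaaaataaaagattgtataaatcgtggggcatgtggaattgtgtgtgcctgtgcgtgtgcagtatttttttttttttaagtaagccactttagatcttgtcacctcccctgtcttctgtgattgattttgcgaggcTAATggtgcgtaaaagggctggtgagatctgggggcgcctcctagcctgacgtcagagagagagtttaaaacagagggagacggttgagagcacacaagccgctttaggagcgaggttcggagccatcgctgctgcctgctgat
TPH1: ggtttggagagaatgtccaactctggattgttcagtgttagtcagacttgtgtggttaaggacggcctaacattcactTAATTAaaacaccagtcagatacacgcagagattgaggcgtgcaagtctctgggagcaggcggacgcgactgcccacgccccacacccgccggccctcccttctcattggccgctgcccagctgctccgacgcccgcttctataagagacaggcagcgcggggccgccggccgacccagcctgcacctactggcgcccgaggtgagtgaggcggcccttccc
GCG held TAAT at 2 places, SST at 1 and TPH1 at 2 places that overlap as a palindrome. The longer form CTAATNG, which contains TAAT and was searched on both strands, occurred in the SST window alone of the 3, starting 95 bases before the start of the gene. Of all 27305 windows in the table, 51.0% held TAAT and 5.03% held CTAATNG. Among 12960 genes tested here, 37.2% held TAAT, and so did 36.5% of genes called higher and 36.5% of those called lower; among genes called higher or lower by over 1 on the log2 scale it stood in 44.5% (of 272) and 46.1% (of 219). For CTAATNG the shares of tested, higher and lower genes were 3.59%, 3.55% and 2.99%, and 3.68% and 3.65% past that fold. No test was made of these shares. These matches describe letters and show no binding.

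The 6 libraries held 55308709 to 66818614 gene counts each. They correlated at 0.984 or more within a group and at 0.971 or more between groups (log2 CPM across genes). CHGA, an endocrine granule protein, took the most counts in all 6. BFP replicate 1 was read on another set of 4 lanes than the other 5 libraries. Levels below are library-scaled counts (CPM) after TMM scaling and are not divided by gene length. A log2 fold change is ISL1 OE over BFP, given with its standard error, and a gene is called higher or lower at an adjusted p under 0.05 from edgeR's quasi-likelihood test with replicate number as a block. Here and below, fewer cells of a type and less RNA per cell cannot be told apart in bulk RNA.

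ISL1 itself (ENSG00000016082, chromosome 5, 51383391 to 51394738, plus strand) had 61.8, 72.8 and 83.6 CPM in ISL1 OE, against 63.0, 64.7 and 72.0 CPM in BFP. The groups overlapped, and the log2 fold change of 0.12 ± 0.07 did not pass the test (adjusted p = 0.248, 95% interval −0.03 to 0.28). In WT cells the gene had 281 and 468 CPM with BFP and 331 and 313 CPM with the ISL1 vector. That effect was not called (−0.25 ± 0.19, edgeR adjusted p = 0.549). In PAX6 KO the effect was not called either (0.07 ± 0.20, edgeR adjusted p = 0.862). Of the annotated transcripts of ISL1, ISL1-201 took 64.2 to 90.6 CPM in the 6 ISL1 KO libraries (estimated transcript counts over the library total). The other 2 took at most 1.08. The RNA of ISL1 therefore does not check the vector's label in ISL1 KO, WT or PAX6 KO cells. ISL1 OE is used throughout as the name the labels give.

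Across the 19980 genes tested, 4937 (24.7%) were called, 2390 higher (12%) and 2547 lower (12.7%). Of these, 399 were higher and 373 lower by over 1 on the log2 scale, and 104 were higher and 25 lower by over 2. In 28.2% of tested genes the groups did not overlap, with ISL1 OE higher in 13.7% and lower in 14.5%. The number of calls rests on the pairing: without it 1461 of the 19980 genes were called, 643 higher and 818 lower. Without replicate pair 3 the paired count was 2878. Counts in the gene lists below, with and without the pairing, are to be read against these numbers for all genes. When all 21 libraries shared 1 estimate of the spread, 62 genes were called with the pairing and 94 without it.

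**Figure D1:**
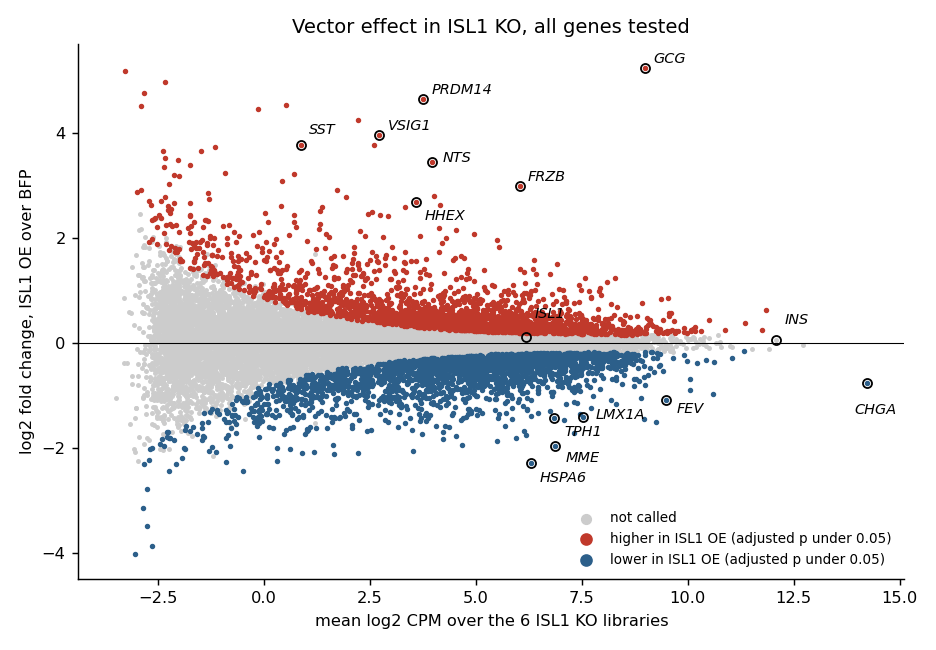
Log2 fold change (ISL1 OE over BFP) of each of the 19980 genes tested in ISL1 KO cells, against its mean log2 CPM over the 6 libraries. Red genes were called higher (2390) and blue genes lower (2547). GCG lies highest among the labelled genes at 5.24, while ISL1 (0.12) and INS (0.07) lie near 0.

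Glucagon rose most among genes with a mean log2 CPM of at least 2. GCG (ENSG00000115263, chromosome 2, 162142873 to 162152404, minus strand), which encodes the hormone of alpha cells, had 2067, 2519 and 5039 CPM in ISL1 OE, against 84.2, 71.0 and 82.5 CPM in BFP. Every ISL1 OE library lay far above every BFP library, a 37.7-fold difference (log2 5.24 ± 0.20, adjusted p = 4.09e-09). ISL1 OE replicate 3 was the highest and replicate 1 the lowest, so the pairs differed by 4.61, 5.14 and 5.92 on the log2(CPM + 0.5) scale. In WT BFP the gene had 33500 and 46630 CPM, well above either group. The call was lost in the fit of all 21 libraries with the block (5.21 ± 1.03, adjusted p = 0.0515).

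Somatostatin and peptide YY rose, both at low levels. SST (chromosome 3, 187668906 to 187670399, minus strand), the hormone of delta cells, had 3.97, 5.43 and 10.7 CPM in ISL1 OE and 0.346, 0.535 and 0.517 CPM in BFP (log2 3.78 ± 0.23, adjusted p = 2.28e-07). PYY, a peptide of gamma and gut endocrine cells, had 2.23, 2.71 and 6.20 CPM in ISL1 OE and 0.740, 0.378 and 1.09 CPM in BFP (log2 2.31 ± 0.26, adjusted p = 3.02e-05). IAPP, the amyloid peptide secreted with insulin, reached only 0.417, 0.768 and 0.626 CPM in ISL1 OE, against 0.0787, 0.157 and 0.129 CPM in BFP (log2 2.30 ± 0.46, adjusted p = 0.00268). In WT BFP, SST had 86.9 and 128 CPM and IAPP 7.75 and 7.30 CPM, so both stayed below WT levels in all ISL1 OE libraries. In the fit of all 21 libraries with the block the adjusted p of SST was 0.137.

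Insulin and ghrelin gave no call. INS had 3607, 4473 and 4697 CPM in ISL1 OE and 4283, 4680 and 3325 CPM in BFP, with overlapping groups (log2 0.07 ± 0.10, adjusted p = 0.701, 95% interval −0.16 to 0.29). WT BFP held 13130 and 10100 CPM. GHRL, the hormone of epsilon cells, had 36.3, 36.5 and 54.0 CPM in ISL1 OE and 40.0, 37.6 and 50.4 CPM in BFP (log2 −0.02 ± 0.08, adjusted p = 0.871, 95% interval −0.19 to 0.15). PPY was too low to be tested. Of the 7 islet hormone genes listed, 6 were tested, 4 were called higher (66.7% of those tested) and none lower.

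**Figure D2:**
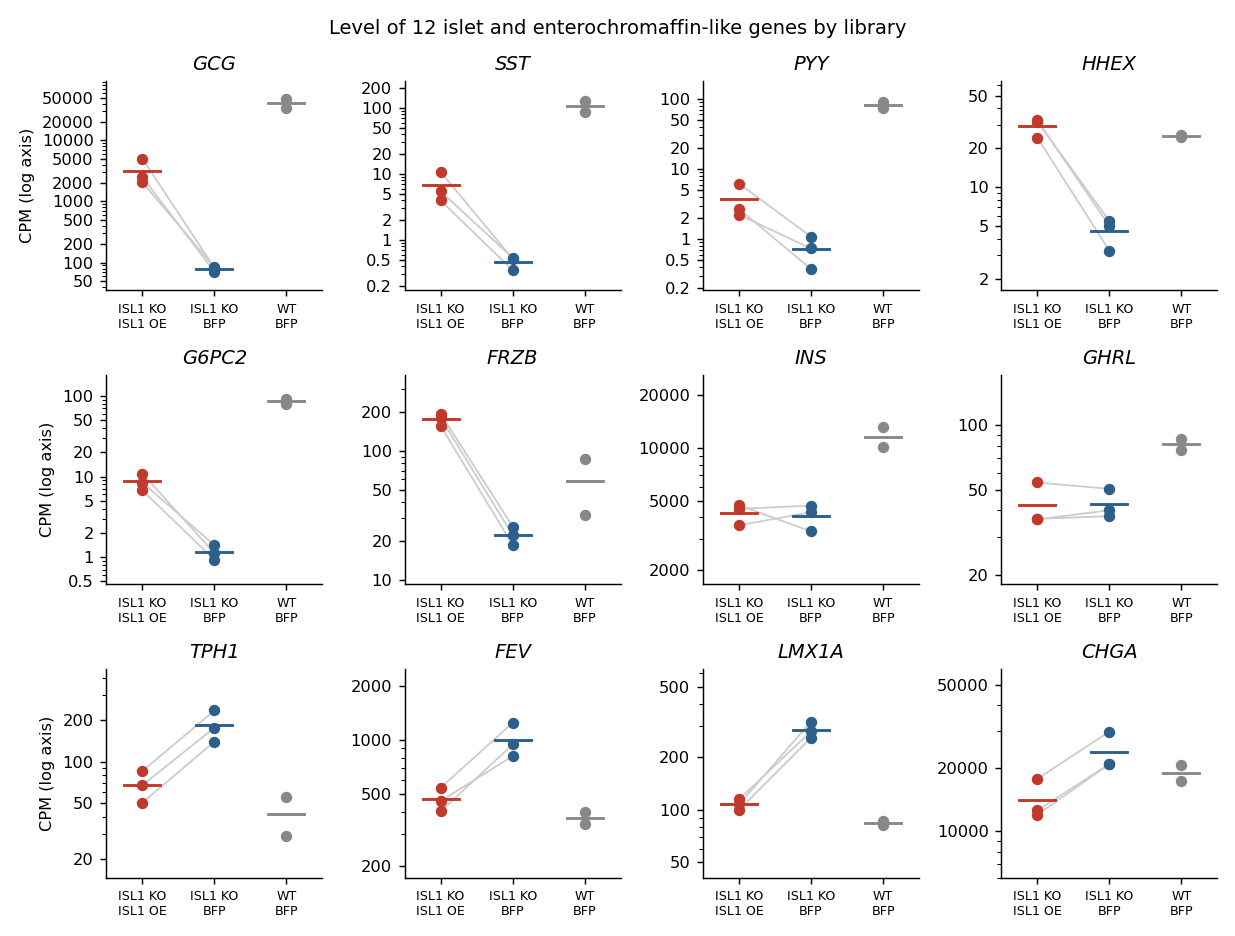
CPM of 12 genes by library on log axes, for ISL1 KO ISL1 OE (red), ISL1 KO BFP (blue) and WT BFP (grey); bars are means and grey lines join replicate pairs. GCG, SST, PYY, HHEX, G6PC2 and FRZB lie higher in all ISL1 OE than in all BFP libraries of ISL1 KO cells, TPH1, FEV, LMX1A and CHGA lie lower, and INS and GHRL overlap.

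Genes of delta cells changed in 1 direction. Of 13 tested members of the delta cell list, 7 were called higher and none lower (53.8% higher; median log2 fold change 0.85, against 0.01 for all genes), and 5 were called without the pairing. HHEX, a homeodomain factor needed for delta cells in mice, had 32.3, 31.7 and 23.9 CPM in ISL1 OE and 5.05, 5.51 and 3.26 CPM in BFP (2.69 ± 0.11, adjusted p = 7.13e-09). FRZB, a secreted antagonist of Wnt signalling, had 179, 192 and 155 CPM in ISL1 OE and 22.2, 25.9 and 18.7 CPM in BFP (2.99 ± 0.07, adjusted p = 9.69e-11). Both genes thus stood at levels near or above the 23.9 and 25.2 CPM of HHEX and 85.5 and 32.1 CPM of FRZB in WT BFP. RBP4, a retinol carrier also made by liver cells, rose by 1.41 ± 0.09, and CASR, the calcium-sensing receptor, by 0.85 ± 0.10. The summed level of the 15 listed genes was 481 to 516 CPM in ISL1 OE, 208 to 227 CPM in BFP and 912 to 1042 CPM in WT BFP.

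The alpha cell list split. Of 24 tested members 12 were called higher (50%) and 9 lower (37.5%), with a median of 0.26, and 6 and 5 without the pairing. Beside GCG, RGS4, a regulator of G protein signalling, rose by 1.24 ± 0.06, and GPR119, a lipid-sensing receptor of islet and gut endocrine cells, by 2.01 ± 0.16. LOXL4, a lysyl oxidase, rose by 1.83 ± 0.18. Among the members that fell were CRYBA2 (−0.97 ± 0.07), which encodes a crystallin, GC (−1.29 ± 0.10), the vitamin D binding protein, and POU3F4 (−1.11 ± 0.13), a POU homeodomain factor. IRX1, an Iroquois homeodomain factor, fell by 0.57, while IRX2 (−0.12) was not called. Without GCG, the other members therefore moved in both directions.

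Beta cell genes were also mixed, with 9 of 33 tested members higher (27.3%), 12 lower (36.4%) and a median of 0.02; 6 and 7 were called without the pairing. G6PC2, the islet glucose-6-phosphatase, had 6.75, 10.9 and 8.42 CPM in ISL1 OE and 0.928, 1.12 and 1.41 CPM in BFP (2.91 ± 0.18, adjusted p = 1.78e-07). SLC30A8, the zinc transporter of insulin granules, had 79.5, 106 and 134 CPM in ISL1 OE and 42.7, 55.0 and 63.0 CPM in BFP (0.99 ± 0.07, adjusted p = 6.95e-07). ENTPD3, an ectonucleotidase, and ERO1B, an oxidase of the endoplasmic reticulum, rose by 1.13 ± 0.37 and 1.24 ± 0.09. In the other direction, NKX6-1, a homeodomain factor of beta and some enterochromaffin-like cells, had 79.5, 79.8 and 110.8 CPM in ISL1 OE and 183, 184 and 236 CPM in BFP (−1.16 ± 0.06, adjusted p = 9.03e-08). SYT13, a synaptotagmin, fell by 1.33 ± 0.07, and MNX1, another homeodomain factor, by 0.81 ± 0.09. MAFA, an activator of the insulin gene, was low in all 6 libraries, with 0.916, 1.22 and 1.53 CPM in ISL1 OE and 2.44, 2.08 and 3.17 CPM in BFP (−1.06 ± 0.22, adjusted p = 0.00329). PDX1 (0.18 ± 0.06, adjusted p = 0.059), SLC2A2 (−0.34 ± 0.16) and KCNJ11 (−0.17 ± 0.09) were not called.

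Genes of enterochromaffin-like cells fell. Of 18 tested members of that list 13 were called lower (72.2%) and 2 higher (11.1%), with a median of −0.88, and 10 and 2 without the pairing. TPH1 (chromosome 11, 18017564 to 18042426, minus strand) had 50.6, 67.5 and 85.3 CPM in ISL1 OE and 139, 175 and 233 CPM in BFP (−1.42 ± 0.06, adjusted p = 1.59e-08). LMX1A, a LIM homeodomain factor, had 99.5, 114 and 107 CPM in ISL1 OE and 257, 279 and 317 CPM in BFP (−1.40 ± 0.07, adjusted p = 2.27e-08). FEV, an ETS factor of serotonin cells that endocrine progenitors also make, had 402, 458 and 544 CPM in ISL1 OE and 945, 815 and 1247 CPM in BFP (−1.08 ± 0.07, adjusted p = 4.36e-07). For each of these 3 genes all ISL1 OE libraries lay below all BFP libraries. DDC, the decarboxylase that completes serotonin synthesis, fell by 1.04 ± 0.06, the cerebellin CBLN1 by 1.67 ± 0.09 and the tachykinin precursor TAC1 by 1.29 ± 0.23. SLC18A1, the vesicular transporter that loads serotonin, fell by 0.82 ± 0.07. The 2 members that rose were SLC6A4 (1.11 ± 0.18), the serotonin uptake transporter, and ADGRL2 (0.96 ± 0.09), an adhesion receptor. The summed level of the list was 1468 to 1774 CPM in ISL1 OE, 2703 to 3529 CPM in BFP and 1574 to 1780 CPM in WT BFP. In the fit of all 21 libraries with the block 2 members were called, and the adjusted p of TPH1 was 0.354.

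The secretory machinery of endocrine cells fell with them. In that list 28 of 36 tested members were lower (77.8%) and 4 higher (11.1%), with a median of −0.54, and 13 and 1 without the pairing. CHGA had 12000, 12570 and 17810 CPM in ISL1 OE and 20940, 20970 and 29920 CPM in BFP (−0.76 ± 0.04, adjusted p = 2.27e-08). CHGB fell by 0.85 ± 0.06 and SYT11 by 0.88 ± 0.06, while the granule proteins SCG2, SCG3 and SCGN fell by 0.61 ± 0.06, 0.46 ± 0.06 and 0.54 ± 0.06. The prohormone convertases PCSK1 and PCSK2 fell by 0.73 ± 0.07 and 0.63 ± 0.06, and the membrane fusion protein SNAP25 by 0.84 ± 0.06. The members that rose were SCG5 (0.53 ± 0.06), a chaperone of PCSK2, CPE (0.24 ± 0.05) and PAM (0.46 ± 0.06), which trim and amidate peptides, and SYT4 (0.75 ± 0.06).

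Ion channels coupled to secretion followed the same direction, with 17 of 37 tested members lower (45.9%) and 4 higher (10.8%), and 7 and 1 without the pairing. The inward rectifiers KCNJ3 and KCNJ6 fell by 1.26 ± 0.08 and 0.84 ± 0.07, the calcium channel CACNA1E by 1.53 ± 0.36 and the sodium channel SCN3A by 1.21 ± 0.12. ANO1, a calcium-gated chloride channel, rose by 1.33 ± 0.22. Receptors were divided, with 10 of 35 higher (28.6%) and 12 lower (34.3%), and 5 and 9 without the pairing. Beside GPR119, the fatty acid receptor FFAR1 and the muscarinic receptor CHRM3 rose by 0.72 ± 0.11 and 1.67 ± 0.26. The adrenergic receptor ADRA2A had 107, 129 and 161 CPM in ISL1 OE and 273, 289.7 and 369 CPM in BFP (−1.24 ± 0.06, adjusted p = 5.56e-08). NPY1R, a receptor of neuropeptide Y, fell by 1.24 ± 0.07, and the incretin receptors GLP1R and GIPR by 0.75 ± 0.09 and 0.81 ± 0.14.

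Of 40 islet transcription factors tested, 18 fell (45%), 8 rose (20%) and the rest were not called, with a median of −0.15, and 9 and 5 without the pairing. INSM1, a zinc finger factor of newborn endocrine cells, had 661, 779.7 and 787 CPM in ISL1 OE and 1273, 1346 and 1528 CPM in BFP (−0.89 ± 0.05, adjusted p = 1.71e-07). NEUROD1 (−0.43 ± 0.05), NKX2-2 (−0.69 ± 0.09) and NEUROG3 (−0.30 ± 0.06), factors that start and hold the endocrine programme, were lower by less. In the NKX2-2 values the groups overlapped, since BFP replicate 2 (42.5 CPM) lay below ISL1 OE replicate 3 (43.8 CPM). None of NEUROD1, NKX2-2 and NEUROG3 was called without the pairing (adjusted p = 0.086, 0.11 and 0.154). PAX6, an activator of hormone genes, was called higher by 0.27 ± 0.07 (adjusted p = 0.0091), with 84.9, 88.6 and 145 CPM in ISL1 OE and 74.1, 74.0 and 114.6 CPM in BFP; the groups overlapped and without the pairing its adjusted p was 0.522.

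LIM homeodomain factors and their cofactors gave 4 higher (20%) and 3 lower (15%) of 20 tested, against 12% and 12.7% of all genes. Without the pairing the counts were 3 and 2. LDB1, the cofactor of ISL1, was not called (−0.02 ± 0.08), nor was its relative ISL2 (−0.17 ± 0.55). LDB2, a second LIM domain binding protein, had 9.45, 8.57 and 13.8 CPM in ISL1 OE and 2.69, 3.05 and 5.26 CPM in BFP (1.56 ± 0.13, adjusted p = 3.23e-06). LMO2, a LIM-only protein that binds LDB1, had 3.82, 5.30 and 7.24 CPM in ISL1 OE and 1.39, 1.01 and 1.42 CPM in BFP (2.08 ± 0.21, adjusted p = 1.57e-05). The members that fell were LMX1A, LMX1B (−0.67 ± 0.07) and SSBP4 (−0.39 ± 0.07).

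Of 26 tested endocrine progenitor genes, 7 rose (26.9%) and 10 fell (38.5%), and 4 and 6 without the pairing. The Notch ligand DLL4 had 35.4, 44.0 and 51.0 CPM in ISL1 OE and 96.0, 95.7 and 107 CPM in BFP (−1.20 ± 0.08, adjusted p = 5.66e-07), while the ligands DLL1 and DLL3 rose by 0.74 ± 0.08 and 0.56 ± 0.13. In the Notch list 9 of 22 were higher (40.9%) and 3 lower (13.6%), and 3 and 2 without the pairing. Those higher included NOTCH1 (1.72 ± 0.20), NOTCH3 (0.78 ± 0.07) and HES1 (0.57 ± 0.07), a repressor that Notch activates; without the pairing HES1 was not called (adjusted p = 0.0721). The list of pancreatic progenitors and duct had 9 of 22 higher (40.9%) and 5 lower (22.7%), and 5 and 1 without the pairing. SLC4A4, a sodium bicarbonate cotransporter, had 49.6, 44.0 and 30.1 CPM in ISL1 OE and 6.01, 6.36 and 5.16 CPM in BFP (2.80 ± 0.10, adjusted p = 4.09e-09). ONECUT1, SOX9 and MUC1 rose by 1.05 ± 0.10, 0.60 ± 0.07 and 0.97 ± 0.30, whereas the chloride channel CFTR fell by 0.92 ± 0.12.

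Proliferation genes rose together by small amounts. Of 24 tested, 23 were called higher (95.8%) and none lower, with a median of 0.42. MKI67 and TOP2A rose by 0.51 ± 0.08 and 0.51 ± 0.07. CENPF, a kinetochore protein, had 109.6, 106 and 95.8 CPM in ISL1 OE and 77.2, 63.4 and 53.6 CPM in BFP (0.70 ± 0.08, adjusted p = 3.00e-05). MCM3, a subunit of the replicative helicase, had 215, 207 and 176 CPM in ISL1 OE and 153, 154 and 118.8 CPM in BFP (0.50 ± 0.06, adjusted p = 7.28e-05). These calls rest on the pairing, since 2 members were called without it.

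Enzymes of cholesterol synthesis fell, 19 of 22 tested (86.4%) with none higher and a median of −0.46; 11 were called without the pairing. HMGCS1 had 139, 126.1 and 104 CPM in ISL1 OE and 213, 261 and 217 CPM in BFP (−0.90 ± 0.08, adjusted p = 4.05e-06). INSIG1, a sterol sensor, fell by 0.78 ± 0.06 and IDI1 by 0.69 ± 0.06. FASN, which makes fatty acids, was not called (−0.04 ± 0.07).

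**Figure D3:**
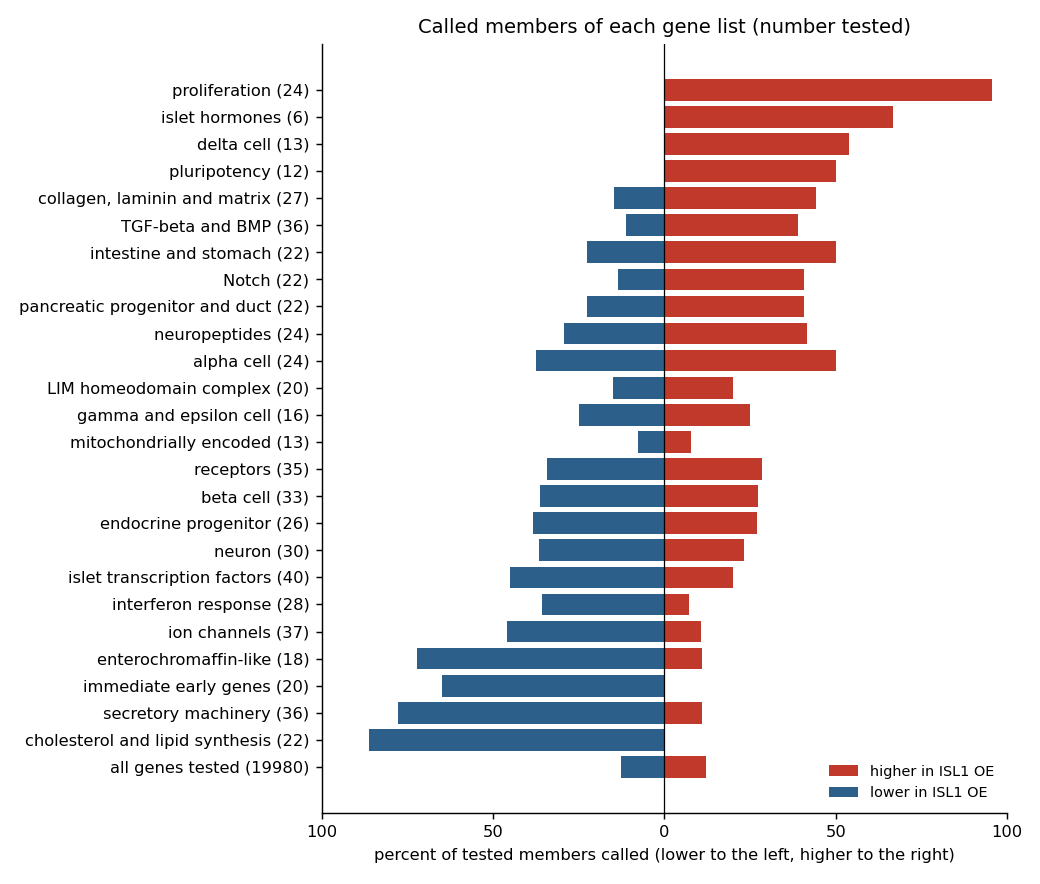
Percent of the tested members of 25 gene lists called higher (red, to the right) or lower (blue, to the left) in ISL1 OE, with the number tested in brackets and all 19980 genes tested at the bottom. Proliferation (95.8% higher) and cholesterol synthesis (86.4% lower) lie at the ends, against 12% and 12.7% of all genes.

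The genes with the largest rises beside GCG came from several classes. PRDM14 (chromosome 8), a zinc finger factor of pluripotent and germ cells, had 74.8, 64.7 and 52.5 CPM in ISL1 OE and 2.42, 3.15 and 2.13 CPM in BFP (4.64 ± 0.12, adjusted p = 9.69e-11). RIPPLY3, a corepressor that binds T-box factors, had 21.2, 20.7 and 16.1 CPM in ISL1 OE and 1.29, 0.992 and 0.776 CPM in BFP (4.26 ± 0.14, adjusted p = 1.08e-09). VSIG1, an immunoglobulin domain protein of stomach epithelium, had 26.1, 25.6 and 21.8 CPM in ISL1 OE and 1.40, 1.605 and 1.70 CPM in BFP (3.96 ± 0.13, adjusted p = 1.08e-09). All 3 had at most 3.15 CPM in every BFP library. NOX4, an oxidase that makes hydrogen peroxide, rose by 3.77 ± 0.12, and NTS, the gut and brain peptide neurotensin, by 3.45 ± 0.10. The 12 also held FRZB, SLC4A4, HHEX, COL14A1 (2.62 ± 0.15), a collagen, SNCAIP (2.60 ± 0.14), which encodes the synuclein-binding protein synphilin, and SOX21 (2.51 ± 0.17). SOX21 has an antisense neighbour, SOX21-AS1, and the libraries do not mark strand.

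Among the largest falls were several genes of neurons and secretory cells. MME, the peptidase neprilysin, had 50.3, 64.8 and 54.1 CPM in ISL1 OE and 184, 240.5 and 236 CPM in BFP (−1.96 ± 0.07, adjusted p = 1.69e-09). ENDOD1, which encodes a protein with an endonuclease domain, had 31.2, 39.6 and 42.0 CPM in ISL1 OE and 111.5, 129 and 142 CPM in BFP (−1.76 ± 0.07, adjusted p = 5.27e-09). PPP1R17, a phosphatase inhibitor, had 68.8, 92.0 and 92.3 CPM in ISL1 OE and 244, 266 and 324 CPM in BFP (−1.72 ± 0.07, adjusted p = 8.06e-09). In all 3 the groups did not overlap, which was a condition for a place among these falls. ARPP21 (−1.95 ± 0.09), MGLL (−1.82 ± 0.11), a lipase that degrades an endocannabinoid, BRINP3 (−1.80 ± 0.11), AC007614.1 (−1.78 ± 0.10), GNG3 (−1.73 ± 0.14), a G protein subunit, GRIA1 (−1.68 ± 0.09), a glutamate receptor subunit, CBLN1 and PIRT (−1.67 ± 0.14) made up the rest with the heat shock gene HSPA6. HSPA6 had 49.0, 70.7 and 9.71 CPM in ISL1 OE and 199, 114 and 222 CPM in BFP (−2.29 ± 0.47, adjusted p = 0.00345), and its fall was −1.36 without replicate pair 3 and −3.16 without pair 2.

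**Figure D4:**
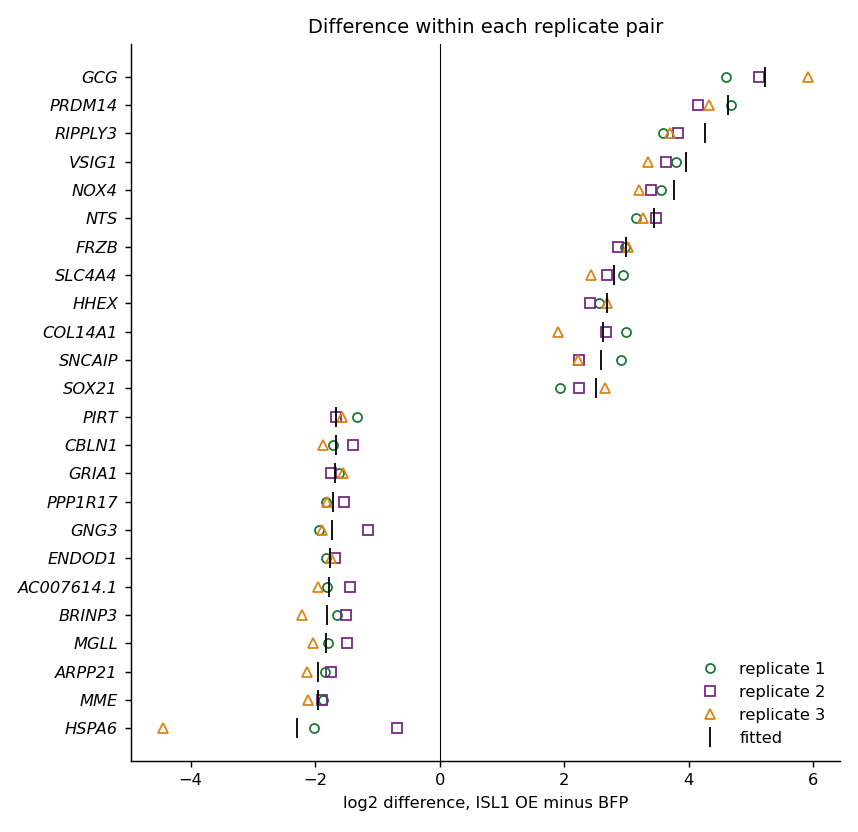
Log2 difference (ISL1 OE minus BFP) within each replicate pair for the 12 largest rises and the 12 largest falls, on the log2(CPM + 0.5) scale, with the fitted log2 fold change as a bar. Each gene has the same sign in all 3 pairs, which follows from choosing only genes whose groups did not overlap. HSPA6 spreads most, from −4.45 in replicate 3 to −0.68 in replicate 2.

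Markers of other cell types were measured beside these groups. PECAM1 and PTPRC, which mark endothelium and blood cells, had at most 0.0718 CPM in any of the 6 libraries, as did the acinar gene CTRB1 and the pluripotency gene NANOG. Other members of the endothelium and blood list were measurable. That list summed to 75.02 to 79.8 CPM in ISL1 OE and 73.48 to 79.64 CPM in BFP. Of 9 tested, 2 were higher (22.2%) and 1 lower (11.1%), and 2 and 1 without the pairing. KDR (1.229 ± 0.161) and RUNX1 (1.624 ± 0.161) were the members that rose, and ESAM (−1.497 ± 0.13) fell. The summed liver list ran from 13370 to 17030 CPM in ISL1 OE, 12810 to 17430 CPM in BFP and 31210 to 33510 CPM in WT BFP. Of its 25 members 10 were lower (40%) and 4 higher (16%), and 1 and 2 without the pairing. AFP, the fetal serum protein, was not called (−0.08 ± 0.04). For mesenchyme the sum was 2941 to 3844 CPM in ISL1 OE and 2527 to 3499 CPM in BFP. There 4 of 18 members were higher (22.2%) and 6 lower (33.3%), and 0 and 1 without the pairing. COL3A1 ran from 24.6 to 88.8 CPM among the ISL1 OE libraries and from 36.1 to 174 CPM among the BFP libraries. For neurons the sum was 1102 to 1222 CPM in ISL1 OE and 1076 to 1424 CPM in BFP. Here 7 of 30 members were higher (23.3%) and 11 lower (36.7%), and 4 and 3 without the pairing. Acinar genes summed to 422 to 462 CPM in ISL1 OE and 378 to 445 CPM in BFP. Of 10 tested, 4 were higher (40%) and 1 lower (10%), and 1 and 1 without the pairing. PRSS1 and PRSS2 are close paralogs. Genes encoded in mitochondria summed to 6541 to 8989 CPM in ISL1 OE and 5777 to 8520 CPM in BFP. The part of these cell types in the results was not tested.

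The vector effect was then set beside the effect of the same vectors in WT cells, where 816 of 21226 genes were called (3.84%). The difference between the effects (ISL1 KO minus WT) was called for 326 genes (1.54%), 180 of them positive and 146 negative. This count fell to 33 to 40 when an ISL1 KO pair was left out, and to 0 with all 21 libraries in the fit (613 genes had an unadjusted p under 0.05); DESeq2 called 950. Among the genes named here GCG differed most: its log2 fold change was 5.24 ± 0.20 in ISL1 KO and −0.44 ± 0.26 in WT, a difference of 5.66 ± 0.36 (adjusted p = 0.000345). In WT the gene had 31640 and 28750 CPM with the ISL1 vector and 33500 and 46630 CPM with BFP. SST rose by 3.78 ± 0.23 in ISL1 KO, against 0.38 ± 0.20 in WT, which did not pass the test (difference 3.41 ± 0.32, adjusted p = 0.00251). The differences of IAPP (2.02 ± 0.31, adjusted p = 0.015) and G6PC2 (2.66 ± 0.26, adjusted p = 0.00255) were also positive. SLC24A4, a sodium, calcium and potassium exchanger, had 6.12, 5.83 and 6.84 CPM in ISL1 OE and 0.315, 0.299 and 0.201 CPM in BFP, and its effect in WT was −0.09 ± 0.22 (difference 4.61 ± 0.32, adjusted p = 0.000345). DESeq2 did not call the difference of GCG (5.67 ± 2.23, adjusted p = 0.136).

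Other genes responded to the vector in WT cells too. PRDM14 rose by 4.64 ± 0.12 in ISL1 KO and 3.95 ± 0.17 in WT, VSIG1 by 3.96 ± 0.13 and 4.43 ± 0.23, and SLC4A4 by 2.80 ± 0.10 and 3.48 ± 0.14. No difference between the genotypes was called for these 3 (adjusted p = 0.155, 0.495 and 0.0892). RIPPLY3, NOX4 and HHEX rose in both as well, by more in ISL1 KO (differences 2.53 ± 0.25, 1.02 ± 0.20 and 0.85 ± 0.17, adjusted p = 0.00255, 0.0383 and 0.0442). CNMD, a cartilage glycoprotein, rose by 2.27 ± 0.29 in ISL1 KO and by 5.33 ± 0.52 in WT (difference −3.06 ± 0.62, adjusted p = 0.0438). FEV fell in both, by 1.08 ± 0.07 in ISL1 KO and 0.59 in WT, and its difference was not called (adjusted p = 0.159). TPH1 fell in ISL1 KO, and its value in WT, −0.83 ± 0.23, missed the threshold (edgeR adjusted p = 0.0849). Its difference of −0.61 ± 0.29 was not called (edgeR adjusted p = 0.398). For LMX1A a difference was called. It fell by 1.40 ± 0.07 in ISL1 KO and was not called in WT (−0.39 ± 0.13, edgeR adjusted p = 0.137). The difference was −1.03 ± 0.16 (edgeR adjusted p = 0.0171).

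A few genes moved in opposite directions in the 2 genotypes. GDF6, a bone morphogenetic protein ligand, fell to 5.25, 5.58 and 5.88 CPM in ISL1 OE, against 14.01, 15.1 and 19.7 CPM in BFP, while WT had 17 and 17.1 CPM with the ISL1 vector and 6.94 and 5.92 CPM with BFP (difference −2.91 ± 0.19, adjusted p = 0.000345). TRPA1, an irritant-gated channel of enterochromaffin cells and sensory neurons, fell by 1.33 ± 0.10 in ISL1 KO and rose by 1.09 ± 0.14 in WT (difference −2.44 ± 0.17, adjusted p = 0.000345). MME, ENDOD1, GRIA1 and PPP1R17, which fell in ISL1 KO, were not called in WT (−0.28 ± 0.12, −0.05 ± 0.12, 0.01 ± 0.15 and −0.19 ± 0.15). Each difference was called (edgeR adjusted p = 0.00202, 0.00202, 0.00493 and 0.00835). Their mean levels in WT BFP were already low, at 70.9, 38.8, 4.79 and 59.1 CPM, against 220, 127, 32.2 and 278 CPM in BFP. In PAX6 KO their effects were −2.385 ± 0.36, −1.658 ± 0.31, −2.29 ± 0.52 and −1.175 ± 0.26. None was called (edgeR adjusted p = 0.0637, 0.0815, 0.107 and 0.104), and no difference between ISL1 KO and PAX6 KO was called for these genes. The estimates in PAX6 KO were thus also falls, and the falls cannot be called particular to ISL1 KO.

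In PAX6 KO cells 3 of 21113 genes were called for the vector (0.0142%), and 1 difference from ISL1 KO was called (0.00474%; 775 genes had an unadjusted p under 0.05, and DESeq2 called 57). That gene was PRDM14, which had 71.4, 54.8 and 42.3 CPM with the ISL1 vector and 32.0, 20.9 and 27.5 CPM with BFP in PAX6 KO (difference 3.57 ± 0.28, adjusted p = 0.0315). VSIG1, NOX4 and HHEX, large rises in ISL1 KO, were the 3 genes called in PAX6 KO, at 2.36 ± 0.20, 2.16 ± 0.17 and 2.12 ± 0.18. The few calls do not mean small effects. TPH1, LMX1A and FEV stood at −1.41 ± 0.20, −1.73 ± 0.25 and −1.03 ± 0.28 in PAX6 KO (edgeR adjusted p = 0.0573, 0.05775 and 0.144). Their differences (ISL1 KO minus PAX6 KO) were −0.03 ± 0.28, 0.31 ± 0.34 and −0.065 ± 0.38, none called. GCG in PAX6 KO had 30.2, 27.3 and 313 CPM with the ISL1 vector and 27.5, 15.2 and 72.7 CPM with BFP, with replicate 3 far above the others; its effect of 1.03 ± 0.40 was not called (adjusted p = 0.252), and the difference of 4.19 ± 0.57 was not either (adjusted p = 0.444). Without PAX6 KO replicate 3 the count of differences was 64, and it was 0 without any other single pair.

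**Figure D5:**
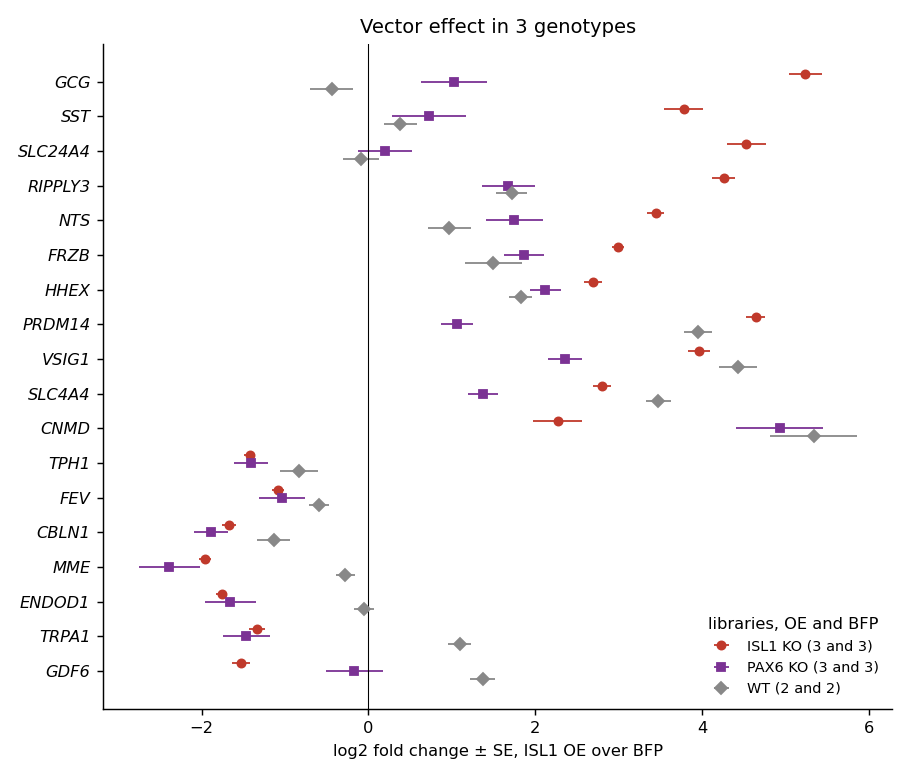
Log2 fold change ± SE (ISL1 OE over BFP) of 18 genes in ISL1 KO (red), PAX6 KO (purple) and WT (grey) cells, with 3 and 3, 3 and 3, and 2 and 2 libraries. GCG lies at 5.24 in ISL1 KO and −0.44 in WT, whereas VSIG1 lies at 3.96 and 4.43; TRPA1 and GDF6 lie on opposite sides of 0 in ISL1 KO and WT.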

How the data were processed

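The authors deposited estimated counts per gene, library and lane, read from SMART-Seq v4 and KAPA EvoPrep libraries of total RNA, per the labels' protocols; the submitters' processing notes name STAR and GRCh38, while the sources used here do not give the counting program. This chemistry marks neither strand nor single molecules, so reads of antisense or overlapping genes cannot be told apart and copies made by amplification are counted each. The deposited expected counts were summed over the 4 lanes of each library (lowest correlation between lanes 0.990) and rounded to whole numbers. The deposited estimated transcript counts were used for ISL1 alone. Of the per-sample columns, 12 (3 libraries whose names match no label) were not used, and 1 repeated column was counted once. Of 38592 genes, 34752 had a symbol (GENCODE 29 and a table of gene names); coordinates are those of GENCODE 29 (GRCh38).

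The test on the 6 ISL1 KO libraries used edgeR 4.0.16 and R 4.3.3 (TMM, filterByExpr, quasi-likelihood F test, Benjamini-Hochberg adjustment over all genes tested), with vector and replicate number as terms and 2 residual degrees of freedom. The common dispersion was 0.00921 with the block and 0.0286 without it. The rule that set the comparison paired the libraries by replicate number, and the labels do not say what a number marks. Deviations of same-numbered libraries from their group means correlated at 0.229, 0.139 and 0.398, against −0.303 to 0.123 for other combinations. These values come from the same counts as the test and are no independent support for the pairing. The deviations sum to 0 within a group, so positive values in some combinations push others below 0. Pair 2 (0.139) lay close to the highest of the other combinations. Differences between vector effects were tested as interactions in joint fits of 2 genotypes, with the block in ISL1 KO and PAX6 KO but not in WT. The series describes biological replicates. Alternatives were no block, all 21 libraries, DESeq2 1.42.0, other scalings, no filter, and leaving out libraries. The tests were tried on simulated counts.

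Named genes were ISL1, an islet panel, the 12 largest rises and falls among called genes whose groups did not overlap and whose log2 CPM averaged 2 or more, up to 4 called members of each list with the smallest adjusted p, and the 5 largest and smallest called differences between genotypes; other list members named in the text were chosen after their values were seen. The libraries, gene lists and tests were chosen with earlier results of these data known, and several genes stand in more than 1 list. Some genes that these rules name are not reported here. Promoter sequences are from RefSeq (GRCh38.p14).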

Additional observations from a re-analysis of the deposited data

Results flagged for a closer look

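Each result here was picked out because the effect of the ISL1 vector in ISL1 KO cells differed from that in cells of another genotype by a test of the difference itself (edgeR interaction, adjusted over all genes). Against WT, the log2 difference (ISL1 KO minus WT) was positive for GCG (5.664), SLC24A4 (4.609), SST (3.408), G6PC2 (2.658), RIPPLY3 (2.532), NTS (2.466), IAPP (2.017), NOX4 (1.016) and HHEX (0.853). The largest adjusted p among these was 0.0442, for HHEX.

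The difference from WT was negative for CNMD (−3.061), GDF6 (−2.91), TRPA1 (−2.435), ADGRG4 (−2.069), SCN3A (−2.04), PIRT (−1.832), ENDOD1 (−1.721), GRIA1 (−1.708), MME (−1.694), PPP1R17 (−1.538), MGLL (−1.329) and GHRL (−0.69). GHRL was not called within ISL1 KO (−0.02 ± 0.08) and was called higher in WT (0.66 ± 0.11, adjusted p = 0.00958), and its difference had an adjusted p of 0.0444. Against PAX6 KO, PRDM14 alone differed (3.574), and that call was lost with all libraries in 1 fit, with library totals as scaling, without any 1 ISL1 KO pair, and without PAX6 KO pair 1 or 2. No test was made for a single library that stands apart in a group of 3, and counts with 1 library left out are given below.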

How the results depend on the processing

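The gene counts rest on the replicate block and on the libraries that share the spread. For the vector effect in ISL1 KO, the 4937 calls became 1461 with no replicate block, and 62 or 94 with all libraries in 1 fit, with or without the block; the 453 calls among named genes and list members became 206, 19 and 26. DESeq2, other scalings and no filter gave 4636 to 5581. Leaving out a replicate pair gave 2878 to 5510 calls. Leaving out 1 library with no block gave 617, 433 and 1567 calls without ISL1 OE replicates 1, 2 and 3, and 906, 1045 and 1136 without BFP replicates 1, 2 and 3; among named genes and list members these were 132, 95, 237, 149, 165 and 196. Of the 145 named genes called, 34 were lost with no block, 138 were called without each pair and 17 in all 16 settings.

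Signs turned for a few genes, among them INS and GHRL, which lay near 0, and PAX6, which had been called. INS ran from −0.166 to 0.226 when a pair was left out, and was −0.033 without ISL1 OE replicate 3 and −0.084 without BFP replicate 3. GHRL ran from −0.1 to 0.039 when a pair was left out, and was 0.003 with library totals, 0.094 and 0.09 without ISL1 OE replicates 1 and 2, and 0.113 without BFP replicate 3. PAX6, called higher in the main fit (0.27 ± 0.07), was −0.024 without ISL1 OE replicate 3. MT-CO3 was −0.057 without ISL1 OE replicate 1. Both of these fits had no block.

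For ISL1 KO minus WT, the 326 calls became 99 with no replicate block, 0 with all libraries, 945 with no filter and 950 with DESeq2, and 33 to 1016 when 1 library or pair was left out, the highest without WT ISL1 OE replicate 2. For ISL1 KO minus PAX6 KO, the 1 call (PRDM14) stayed with no replicate block, was 1 other gene with all libraries, and became 0 with library totals, 3 with no filter and 57 with DESeq2, and 0 to 64 when a pair was left out. The causes were not tested. With 3 libraries a group, genes of low count such as IAPP, and genes that vary among replicates such as HSPA6, have wide intervals.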

Other observations

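Genes of signalling and of the cell surroundings were also measured. Of 36 tested genes of TGF-beta and BMP signalling 14 were higher (38.9%) and 4 lower (11.1%), against 12% and 12.7% of all genes. Their median was 0.18, against 0.01 for all genes, and 7 and 2 were called without the pairing. BMPR1B, a BMP receptor, had 27.3, 24.9 and 22.1 CPM in ISL1 OE and 5.96, 7.29 and 4.97 CPM in BFP (edgeR 2.04 ± 0.11, adjusted p = 9.38e-08), and ACVR1C, an activin receptor, rose by 1.11 ± 0.09. In the Wnt list 10 of 35 were higher (28.6%) and 3 lower (8.57%), and 5 and 2 without the pairing. The receptors FZD2 and FZD5 rose by 1.67 ± 0.15 and 0.999 ± 0.07. In the matrix list, which holds basement membrane genes, 12 of 27 were higher (44.4%) and 4 lower (14.8%), and 6 and 2 without the pairing. COL4A1, a basement membrane collagen, had 43.2, 44.8 and 37.0 CPM in ISL1 OE and 17.3, 18.3 and 17.5 CPM in BFP (1.23 ± 0.08), and HSPG2, which encodes perlecan, rose by 1.08 ± 0.08, while COL5A2 fell by 1.35 ± 0.08. Neuropeptides were mixed (6 higher and 5 lower without the pairing). With it 10 of 24 were higher (41.7%), among them NPY (1.07 ± 0.10). Another 7 were lower (29.2%), among them PTHLH (−1.47 ± 0.08), the parathyroid hormone-like peptide.

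Genes of stomach and intestine were higher in 11 of 22 cases (50%) and lower in 5 (22.7%), against 12% and 12.7% of all genes, and 5 and 3 without the pairing. SOX2, a factor of stomach and of pluripotent cells, had 32.9, 38.4 and 43.5 CPM in ISL1 OE and 11.6, 11.1 and 14.8 CPM in BFP (1.62 ± 0.09, edgeR adjusted p = 1.03e-07). In the pluripotency list 6 of 12 tested were higher (50%) and none lower, LIN28A (1.34 ± 0.11) and SALL4 (0.84 ± 0.07) among them. POU5F1 had at most 0.333 CPM in these libraries and was not called. Of 28 interferon response genes 10 were lower (35.7%) and 2 higher (7.14%), and 4 and 0 without the pairing by edgeR. IFI6 stood at −0.69 ± 0.06, a call lost without the pairing (edgeR adjusted p = 0.0808). Immediate early genes, which answer stimulation within minutes, were lower in 13 of 20 cases (65%) and higher in none, but varied among replicates. JUN had 345, 183 and 108.9 CPM in ISL1 OE and 554, 276 and 436 CPM in BFP. Without the pairing 0 were called lower by edgeR, and DESeq2 with the pairing called 5.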
